A study of Mus musculus with 19 samples.

Results

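The genes described here encode transcription factors and transcriptional regulators of astrocytes, with SOX9 and the nuclear factor I (NFI) proteins the best known among them: Sox9, Sox2, Nfia, Nfib, Nfix, Hes5, Lhx2, Zbtb20, Id3 and Id4. They were chosen by symbol from the row names of the deposited expression matrix. The rule holds no measured value, but the set was proposed with earlier results of these data known. The 10 symbols matched 10 of its 21749 rows, and all 10 passed the filter on low values that left 20644 genes to test. The matrix holds RNA bound to tagged ribosomes (translating ribosome affinity purification, TRAP), in which an EGFP-labelled ribosomal protein L10a, driven by the regulatory sequence of the astrocyte gene Aldh1l1, is pulled down with its messages. All mice carried this transgene, Aldh1l1-EGFP/Rpl10a of the line JD130Htz, on a B6;FVB background, and the labels give brain as the tissue and astrocyte as the cell type. The groups numbered 4: 8 libraries of females in metestrus, 3 of females in proestrus (labelled Pro-Day), 4 of females in estrus and 4 of males. The females were collected at a single morning hour, the hour for the males is not stated in the labels, and age is not stated for any group. The labels also name batches 2, 3 and 4: metestrus is spread over them with 2, 1 and 5 libraries, proestrus with 2, 1 and 0, estrus with 3, 1 and 0, and the 4 males are all in batch 4. The titles of batches 2 and 3 hold CTX and those of batch 4 do not. Whether all libraries come from the same region of the brain is not stated, so region and batch cannot be told apart. Whether a library is 1 animal or a pool is not stated, so p-values reflect only how far libraries vary, which may be technical. Replicate numbers follow the order of deposition and serve only as names.

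The proteins these genes encode are among the transcription factors that set up and keep astrocyte identity. SOX9 and NFIA switch neural progenitors from making neurons to making glia and stay on in mature astrocytes, where SOX9 is widely used as a nuclear astrocyte marker. Notch signalling, through RBPJ, turns on Hes5, and bone morphogenetic protein (BMP) signalling, through SMAD proteins, turns on the Id genes, whose products hold back proneural helix-loop-helix factors. LHX2 and ZBTB20 act in the patterning of the cortex and hippocampus and in gliogenesis.

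The values are the authors' log2 values and are used as deposited. They lack 4 directions of variation between libraries, since they span 14 of 18 dimensions after centring. With the 4 group means also fitted out they span 11 of 15, so all 4 missing directions lie within groups, which lowers the spread against which groups are compared. Sequencing depth is unknown. The library medians of the tested genes ran from 7.47 to 7.79. Astrocyte markers were high in every group (Aldh1l1 at 12.05 ± 0.31 and Slc1a3 at 14.40 ± 0.35 in metestrus, SD, n = 8), as was the neuronal gene Snap25 (15.56 ± 0.16), while the endothelial gene Cldn5 was at 7.39 ± 0.22 and the microglial gene Cx3cr1 at 7.48 ± 0.40. Neuronal messages were thus present beside those of astrocytes. How much of the value of each gene described here came from neurons or other cells was not tested. The 4 Y-linked genes checked were higher in each male library than in each female library, as the labels have it. Xist, the other sex-linked gene checked, was at 2.74 ± 2.19 in males (n = 4) and 8.82 ± 0.68 in metestrus (n = 8). In estrus it was at 5.91 ± 1.29 (n = 4), and its range of 4.51 to 7.55 there overlapped that of the males, who reached 5.11.

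Of the 10 genes, 0 passed the test in any of the 4 comparisons made (limma adjusted p under 0.05). The share of all tested genes that passed was 0.988% for proestrus against metestrus, 0.0872% for estrus against metestrus, 0.94% for estrus against proestrus and 0.0242% for males against metestrus, so a count of 0 of 10 does not stand apart from the other genes. A single limma F test for any difference among the 4 groups, which 0.635% of genes passed, also called 0 of the 10. At an unadjusted p under 0.05 that F test held 2 of the 10, Sox9 and Lhx2, beside 13.9% of all genes. Unadjusted limma p-values under 0.05 were reached by 0 of the 10 in proestrus against metestrus, beside 13.1% of all genes, and by 0 of the 10 in estrus against proestrus, beside 14.5%.

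**Figure D1:**
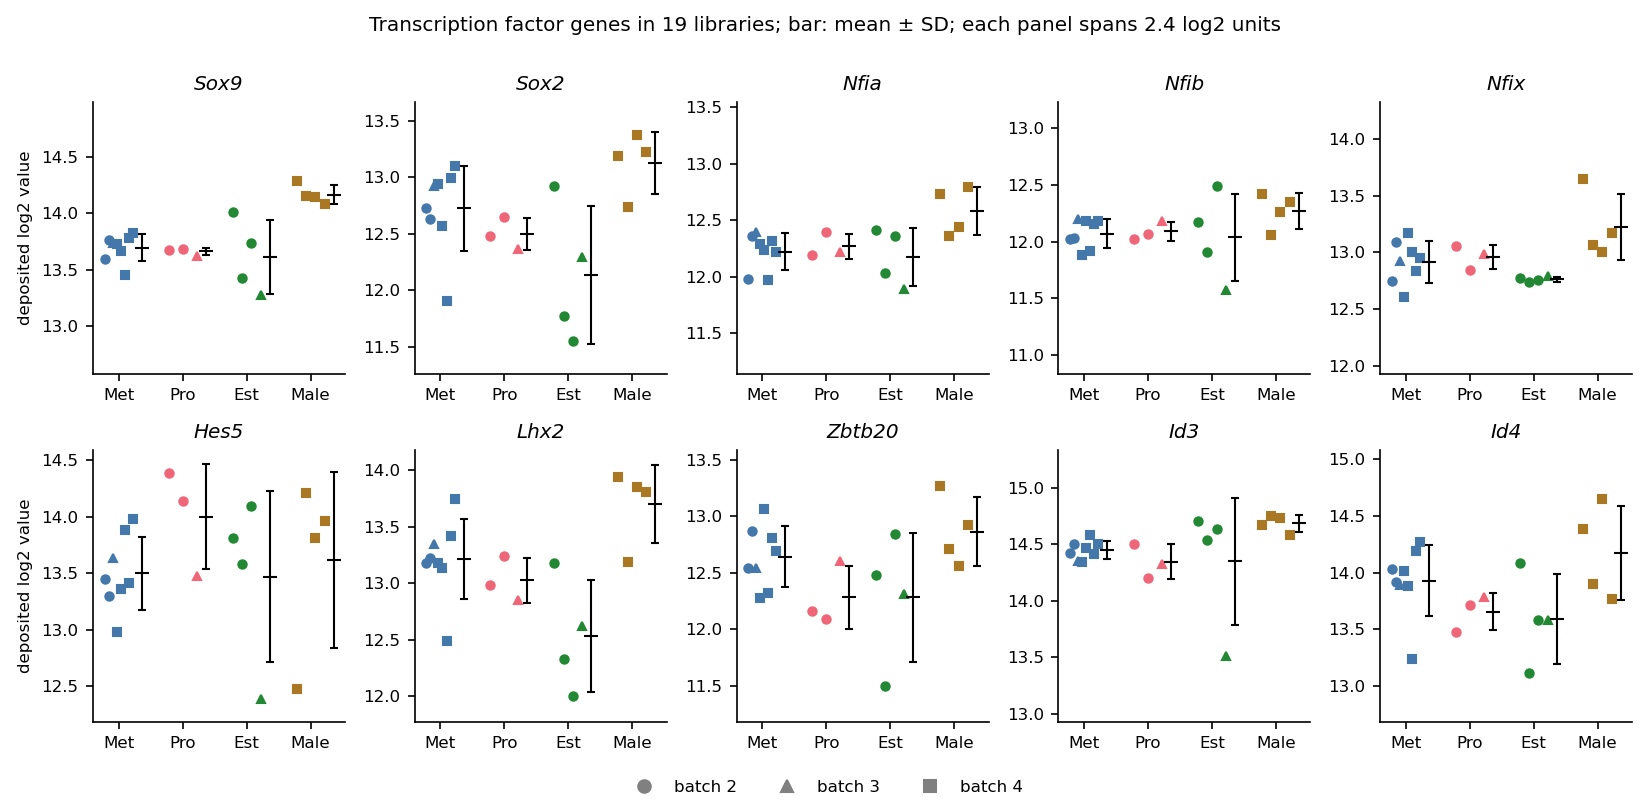
Deposited log2 value (y axis, 2.4 log2 units in every panel) of each gene in each of the 19 libraries by group (x axis); marker shape gives the batch and the black bar the group mean with its SD. The 4 male Sox9 values all lie above the 15 female values, and Hes5, Lhx2, Sox2 and Zbtb20 spread over 1.8 to 2.0 log2 units across the libraries.

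Sox9 was the only one of the 10 genes with all 4 male libraries above all 15 female libraries. The males read 14.28, 14.15, 14.14 and 14.08 (log2 values, replicates 1 to 4), and the metestrus libraries ran from 13.45 through a median of 13.73 to 13.83. Proestrus read 13.68, 13.68 and 13.62, and estrus 14.01, 13.43, 13.73 and 13.28. The gap between the lowest male, 14.08, and the highest female, estrus replicate 1, was narrow, and 0.46% of all tested genes were likewise higher in every male than in every female library. Of these females 10 have CTX in their titles, as no male has. In the fit, Sox9 was 0.47 log2 units higher in males than in metestrus (SE 0.13, 95% interval 0.20 to 0.74), a 1.39-fold difference with an unadjusted limma p of 0.00142 and an adjusted p of 0.691. Both groups were present in batch 4, with titles of one kind, where the 5 metestrus libraries read 13.45 to 13.83 and did not overlap the males. The mean of 20 astrocyte markers was also higher in males, at 13.93 ± 0.11 (n = 4) against 13.74 ± 0.22 (n = 8), with 18 of 20 differences positive and ranges of 13.84 to 14.03 and 13.52 to 14.13 that overlap. With each library centred on that mean the Sox9 difference was 0.28 and its limma adjusted p 0.744. In pulldowns from whole tissue, a difference in the number of astrocytes and a difference in Sox9 message per astrocyte cannot be told apart.

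Across the cycle Sox9 stayed level within its spread. Its mean was 13.69 ± 0.12 in metestrus (n = 8), 13.66 ± 0.034 in proestrus (n = 3) and 13.61 ± 0.33 in estrus (n = 4). Proestrus differed from metestrus by -0.035 (95% interval -0.36 to 0.29) and estrus from metestrus by -0.098 (-0.40 to 0.21), so changes beyond those bounds were not detected and smaller ones were not resolved. The 4 estrus libraries were spread over 0.73 log2 units, the 3 proestrus libraries over 0.061.

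Sox2, a SOX factor of neural stem cells that mature astrocytes keep expressing, had its lowest values in estrus. Estrus read 12.92, 11.77, 11.56 and 12.30, against 12.48, 12.65 and 12.37 in proestrus. Metestrus ran from 11.91 through a median of 12.83 to 13.10, and males read 13.19, 12.74, 13.37 and 13.22. Estrus replicates 2 and 3 lay below every metestrus library, while replicates 1 and 4 lay among them. Sox2 was 0.62 log2 units lower in estrus than in metestrus (difference -0.62, SE 0.28, 95% interval -1.19 to -0.041), with an unadjusted limma p of 0.037 and an adjusted p of 0.408. Within batch 2 the difference was -0.60 (3 against 2 libraries), and in batch 3 it was -0.62 (1 against 1). Males were 0.43 higher than metestrus (95% interval -0.077 to 0.93), and Sox2 lies inside the long non-coding gene Sox2ot, whose exons do not overlap its own.

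The 3 NFI genes, whose products bind DNA as dimers and act with SOX9 in astrocyte development, were the steadiest of the set beside Sox9. Nfia averaged 12.22 ± 0.16 in metestrus (n = 8), 12.27 ± 0.11 in proestrus (n = 3), 12.18 ± 0.25 in estrus (n = 4) and 12.58 ± 0.21 in males (n = 4). Nfib was at 12.07 ± 0.13, 12.09 ± 0.083, 12.04 ± 0.39 and 12.27 ± 0.16 in the same order. Nfix was at 12.92 ± 0.18, 12.96 ± 0.11, 12.76 ± 0.022 and 13.22 ± 0.29. Between stages no NFI gene differed by more than 0.20 log2 units in the fit, and the 95% intervals of these differences reached no further than -0.53 and 0.40, both bounds from Nfix.

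For Nfix the 4 estrus libraries, at 12.77, 12.74, 12.76 and 12.79, lay below the 3 proestrus libraries, at 13.05, 12.84 and 12.99. Its estrus values were spread over 0.053 log2 units. The groups did not overlap, as was so for 9.06% of all genes in this comparison, and the limma adjusted p was 0.621. In males Nfia read 12.74, 12.36, 12.44 and 12.79. The 5 metestrus libraries of the same batch read 11.97 to 12.31, below every male, which held for 1.53% of all genes and for 3 of the 10 described here, Sox9, Nfia and Id3. Nfia was 0.38 higher in males (SE 0.14, 95% interval 0.077 to 0.67, limma adjusted p 0.856) and Nfix 0.31 higher (0.016 to 0.60, adjusted p 0.909), with Nfix at 13.65 in male replicate 1 and between 13.001 and 13.17 in the others. Exons of E130114P18Rik overlap those of Nfia, and exons of Lyl1 and G430095P16Rik those of Nfix, all on the opposite strand. Whether the authors counted reads by strand is not stated in the sources used here, so a share of either value may belong to a neighbour.

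Hes5, the Notch effector, varied more than any other of the 10 once group and batch were fitted, and the groups overlapped. Proestrus read 14.38, 14.14 and 13.48, estrus 13.82, 13.58, 14.10 and 12.39, and males 12.48, 14.21, 13.81 and 13.96. Metestrus ran from 12.98 through a median of 13.43 to 13.98. It was the one gene of the 10 whose mean was highest in proestrus, at 14.002 ± 0.47 (n = 3) against 13.50 ± 0.32 in metestrus (n = 8). The 2 proestrus libraries of batch 2 were 0.89 above the 2 metestrus libraries of that batch, and the single proestrus library of batch 3 was 0.15 below its metestrus partner. In the fit the difference was 0.54 (95% interval -0.20 to 1.28, limma adjusted p 0.554). Estrus against proestrus gave -0.59 (-1.28 to 0.11, limma adjusted p 0.433). Hes5 shares exonic sequence on the opposite strand with Gm20421.

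Id3 was even across libraries apart from a single one. Metestrus ran from 14.34 through 14.44 to 14.58, proestrus read 14.51, 14.20 and 14.33, and males read 14.67, 14.75, 14.74 and 14.59. Estrus read 14.71, 14.54, 14.64 and 13.51, with replicate 4 far below the other three. The lowest male lay 0.0072 above the highest metestrus library, so these groups did not overlap, as for 1.44% of all genes, yet the fitted difference of 0.22 had an interval from -0.083 to 0.53 (limma adjusted p 0.976). The estrus difference from metestrus was -0.11 with all libraries and 0.18 without estrus replicate 4. Id4, another of the ID genes, read 14.09, 13.11, 13.58 and 13.58 in estrus and 13.47, 13.71 and 13.78 in proestrus. In metestrus it ran from 13.23 through 13.96 to 14.27, and in males it read 14.38, 13.89, 14.65 and 13.77. Its fitted differences from metestrus were -0.35 in estrus (-0.86 to 0.15), -0.29 in proestrus (-0.83 to 0.25) and 0.25 in males (-0.19 to 0.70). Exons of Gm49291 and A330033J07Rik overlap those of Id4 on the opposite strand.

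Lhx2, a LIM-homeodomain factor, gave the largest difference of the set between stages. Estrus read 13.18, 12.33, 12.01 and 12.62, proestrus 12.99, 13.24 and 12.85, and males 13.94, 13.19, 13.85 and 13.80. Metestrus ran from 12.49 through a median of 13.20 to 13.75. As with Sox2, estrus replicates 2 and 3 lay below every metestrus library and the others among them, and metestrus replicate 6 was the lowest of its group. Estrus was 0.72 below metestrus (difference -0.72, SE 0.26, 95% interval -1.26 to -0.18), a 1.65-fold difference with an unadjusted limma p of 0.0117 and an adjusted p of 0.304. Within batch 2 the difference was -0.70 (3 against 2 libraries), and in batch 3 it was -0.73 (1 against 1). Leaving out each library in turn gave -0.93 to -0.54. Males were 0.50 above metestrus (0.030 to 0.98, limma adjusted p 0.909).

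Zbtb20, a zinc-finger repressor, averaged 12.64 ± 0.27 in metestrus (n = 8), 12.29 ± 0.28 in proestrus (n = 3), 12.28 ± 0.57 in estrus (n = 4) and 12.87 ± 0.31 in males (n = 4). Estrus replicate 2, at 11.50, was its lowest library and male replicate 1, at 13.27, its highest. Proestrus differed from metestrus by -0.37 (95% interval -0.93 to 0.19) and estrus by -0.36 (-0.89 to 0.17). In batch 2 proestrus differed from metestrus by -0.58 (2 against 2 libraries), and in batch 3 the single proestrus library was 0.060 above. Exons of Zbtb20 overlap those of Gm9968 on the opposite strand and Mir568 on the same strand.

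**Figure D2:**
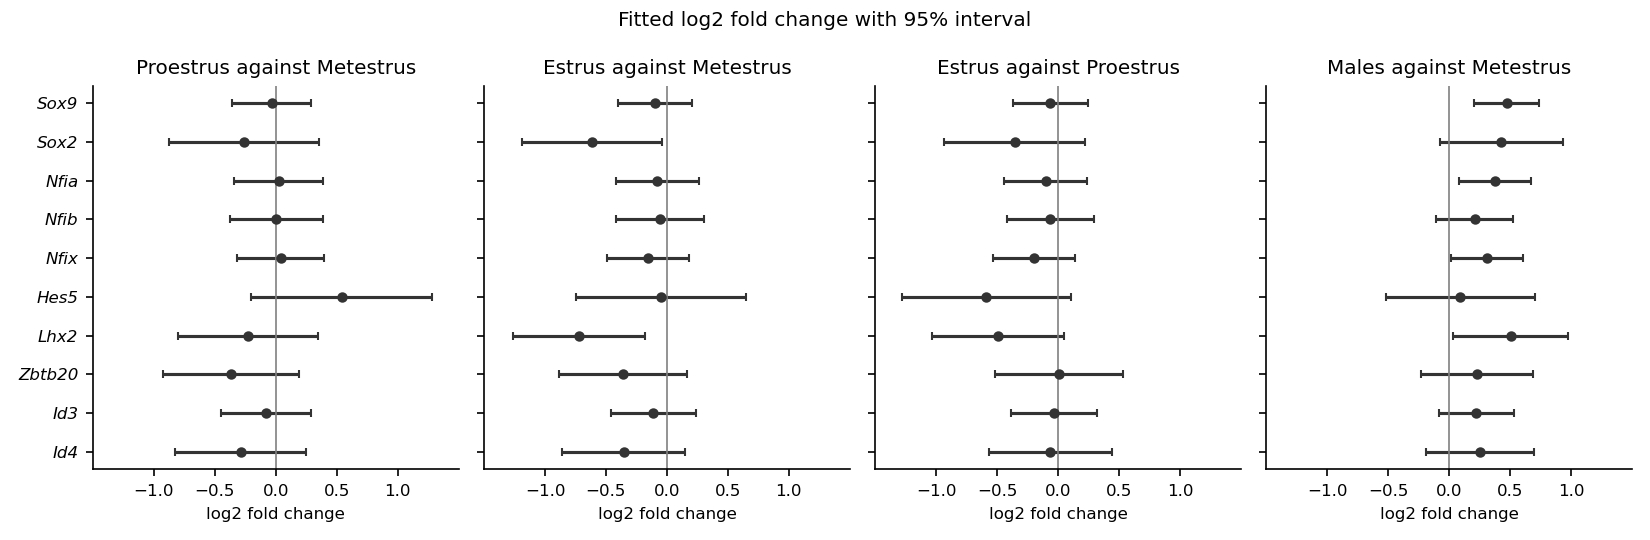
Fitted log2 fold change (x axis, first group minus second) with its 95% interval for each gene (y axis) in the 4 comparisons. All 10 points are left of 0 for estrus against metestrus and right of 0 for males against metestrus; intervals that leave out 0 belong to Sox2 and Lhx2 in the former and to Sox9, Nfia, Nfix and Lhx2 in the latter, before adjustment.

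Set side by side, the 10 genes leaned one way in both of these comparisons. Against metestrus, all 10 estimates were positive in males, with a median of 0.28, beside a median of 0.037 and 55.3% positive over all tested genes. In estrus all 10 were negative, with a median of -0.13, beside -0.069 and 43.5% positive over all genes. Proestrus gave 4 positive and 6 negative values with a median of -0.058, beside -0.089 for all genes. These comparisons share the metestrus libraries, and the genes are correlated with each other, so 10 like signs are not 10 separate observations. Unadjusted p-values under 0.05 were reached by 4 of the 10 in males (Sox9, Nfia, Nfix and Lhx2), where 3.45% of all genes reached it in that direction. In estrus 2 of the 10 did (Sox2 and Lhx2), where 7.18% of all genes did so in that direction. These shares, and those given below for the group means, are over genes of every level. The lowest mean of the 10 was 12.11 (Nfib), against a median of 7.59 over all tested genes. Shares among genes of like level are not given for these comparisons, so the part of level in the lean was not tested.

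The lean in estrus rested on few libraries. Without estrus replicate 4, the one estrus library of batch 3, 5 of the 10 differences from metestrus were positive (Sox9, Nfia, Nfib, Hes5 and Id3). Without metestrus replicate 3, the metestrus library of that batch, 4 were (Nfia, Nfib, Hes5 and Id3). With libraries centred on the astrocyte marker mean 5 were positive in estrus and 9 in males, where the median became 0.085. This centring shifts the differences of all tested genes in a comparison by the same amount. It therefore leaves the distance of the 10 from the other genes as it was. Sox2, Lhx2, Id4, Zbtb20 and Nfix were lower in estrus than in metestrus under each of these settings.

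By group mean, males were the highest of the 4 groups in 9 of the 10 genes, with Hes5 the exception, as in 34.8% of all tested genes. Estrus was the lowest in 9 of the 10, with Id3 the exception, as in 30% of all genes. Ranges of neighbouring groups in the order of means overlapped for every gene except Sox9 and Id3, in both of which males and metestrus did not. Males were not tested against proestrus or estrus, with which they have no batch and no kind of title in common, so the order of these group means holds the batch as well.

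The genes fell into 5 steady and 5 variable ones when judged by the residual SD between libraries after group and batch were fitted. Sox9 was the steadiest at 0.17 log2 units, and 20.6% of genes of like level (mean within 1 log2 unit) had a smaller SD. Nfia and Nfix were both at 0.20, Nfib at 0.22 and Id3 at 0.22, with 26.7 to 44.0% of like genes below them. The other 5 exceeded most genes of their level. Id4 was at 0.37 (89.7% of like genes smaller), Zbtb20 at 0.38 (92.0%), Lhx2 at 0.40 (93.2%), Sox2 at 0.43 (95.4%) and Hes5 at 0.53 (99.3%).

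**Figure D3:**
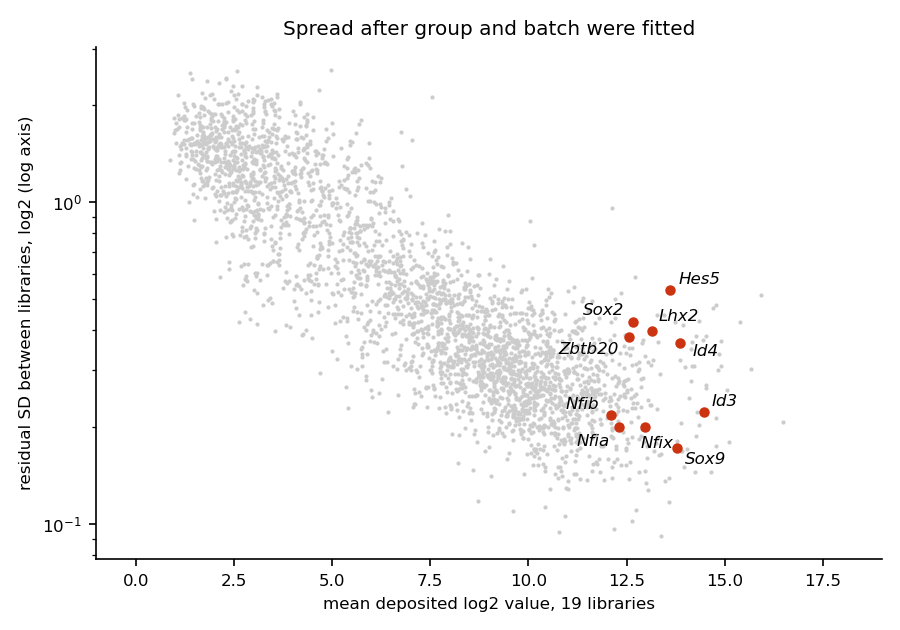
Residual SD between libraries (y axis, log scale) against mean deposited log2 value (x axis) for a random subset of the tested genes in grey and the 10 transcription factor genes in red. Sox9, the NFI genes and Id3 lie in or below the middle of the cloud at their level, and Hes5 at 0.53 and Sox2 at 0.43 lie along its upper edge.

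Sox2 and Lhx2 rose and fell together from library to library. Over the 19 libraries their Pearson r was 0.968 (permutation p 1e-05, the smallest that 100000 resamples give, adjusted over 45 pairs 0.000225) and Spearman's rho 0.918 (permutation p 1e-05). Among 20643 other genes, each was the single most alike to the other. The relation held within batch 4 (r = 0.948), batch 2 (0.974) and the metestrus libraries alone (0.934), after group and batch were fitted out (0.950), and without the 2 libraries farthest from the Sox2 median, estrus replicates 2 and 3 (0.942). Id4 followed both, at r = 0.837 with Sox2 (permutation p 1e-05, adjusted 0.000225) and 0.803 with Lhx2 (permutation p 4e-05, adjusted 0.00045). Missing directions of variation leave fewer than 19 independent points, so these permutation p-values are too small by an unknown amount.

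Because Sox2, Lhx2 and Id4 varied together and the Notch effector Hes5 did not follow them, the stretch just upstream of each start is shown for these 4 genes. The sequences are the 250 bases before the RefSeq start on the plus strand, build GRCm38.p6 (the deposited values were made on GRCm39), 5′ to 3′, with each RBPJ core TGGGAA in capitals; on the other strand it reads TTCCCA.
Sox2, chr3:34649745-34649994: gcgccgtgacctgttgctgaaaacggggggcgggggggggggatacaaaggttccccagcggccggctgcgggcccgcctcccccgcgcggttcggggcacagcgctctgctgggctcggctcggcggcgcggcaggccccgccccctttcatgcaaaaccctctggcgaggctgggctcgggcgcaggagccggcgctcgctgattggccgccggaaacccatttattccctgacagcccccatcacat
Lhx2, chr2:38339031-38339280: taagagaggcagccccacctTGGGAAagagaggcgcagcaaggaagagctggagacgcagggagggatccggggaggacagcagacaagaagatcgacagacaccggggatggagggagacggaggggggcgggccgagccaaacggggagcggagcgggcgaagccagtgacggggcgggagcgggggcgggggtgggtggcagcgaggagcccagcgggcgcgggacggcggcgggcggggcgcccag
Id4, chr13:48260866-48261115: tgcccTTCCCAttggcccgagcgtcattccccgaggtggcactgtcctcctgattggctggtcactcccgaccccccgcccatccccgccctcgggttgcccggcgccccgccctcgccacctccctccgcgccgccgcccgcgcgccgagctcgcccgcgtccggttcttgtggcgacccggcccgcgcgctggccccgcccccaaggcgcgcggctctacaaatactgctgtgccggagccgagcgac
Hes5, chr4:154960673-154960922: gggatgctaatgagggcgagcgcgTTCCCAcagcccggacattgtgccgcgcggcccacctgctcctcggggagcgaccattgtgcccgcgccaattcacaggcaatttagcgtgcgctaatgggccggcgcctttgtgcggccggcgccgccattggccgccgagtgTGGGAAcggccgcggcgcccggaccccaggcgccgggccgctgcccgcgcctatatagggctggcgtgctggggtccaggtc
Lhx2 has 2 windows in the RefSeq table, of which the first is shown; the other also holds 1 match. The Hes5 window holds 2 matches, 1 on each strand, the shown Lhx2 window and the Id4 window hold 1 each and the Sox2 window none. Among 32851 promoter windows of the same length 21.6% hold at least 1 match on either strand and 2.77% hold 2 or more. A SOX core, ACAAT on either strand, occurs 2 times in the Hes5 window and in none of the other 3; 27.7% of all windows hold at least 1 and 6.59% hold 2 or more. All 4 windows are rich in G and C, at 71.6 to 75.6%. These are matches of letters in one window per gene, and no binding was measured.

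Sox9 and Nfia formed a second close pair, with r = 0.853 over 19 libraries (permutation p 2e-05, adjusted 0.0003) and rho 0.818 (permutation p 7e-05). Sox9 ranked 3 of 20643 genes in likeness to Nfia, and Nfia ranked 19 of 20643 in likeness to Sox9. The value was 0.834 in batch 4, 0.769 in batch 2, 0.728 with group and batch fitted out and 0.761 without male replicate 1 and estrus replicate 4. Nfia and Nfib were correlated at r = 0.754 (permutation p 0.00028, adjusted 0.00252), and at 0.686 without male replicates 1 and 4. Of the 45 pairs, 40 were positive and 20 passed at an adjusted permutation p under 0.05, the lowest of them with r = 0.554. That value was reached by 4.36% of all pairs of the other tested genes and by 19% of pairs among the 982 other genes with a mean at or above the lowest mean of the 10. Of the former pairs 53.9% were positive, and of the latter 68.4%. By Spearman's rho 15 passed, with group and batch fitted out 11 did, and 10 passed in all of these. Hes5 passed with none of the other 9 genes; its highest r was 0.509, with Id3 (permutation p 0.0316, adjusted 0.0643), and its r with Sox2 was -0.12. Without male replicate 1 the count of passing pairs was 13.

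**Figure D4:**
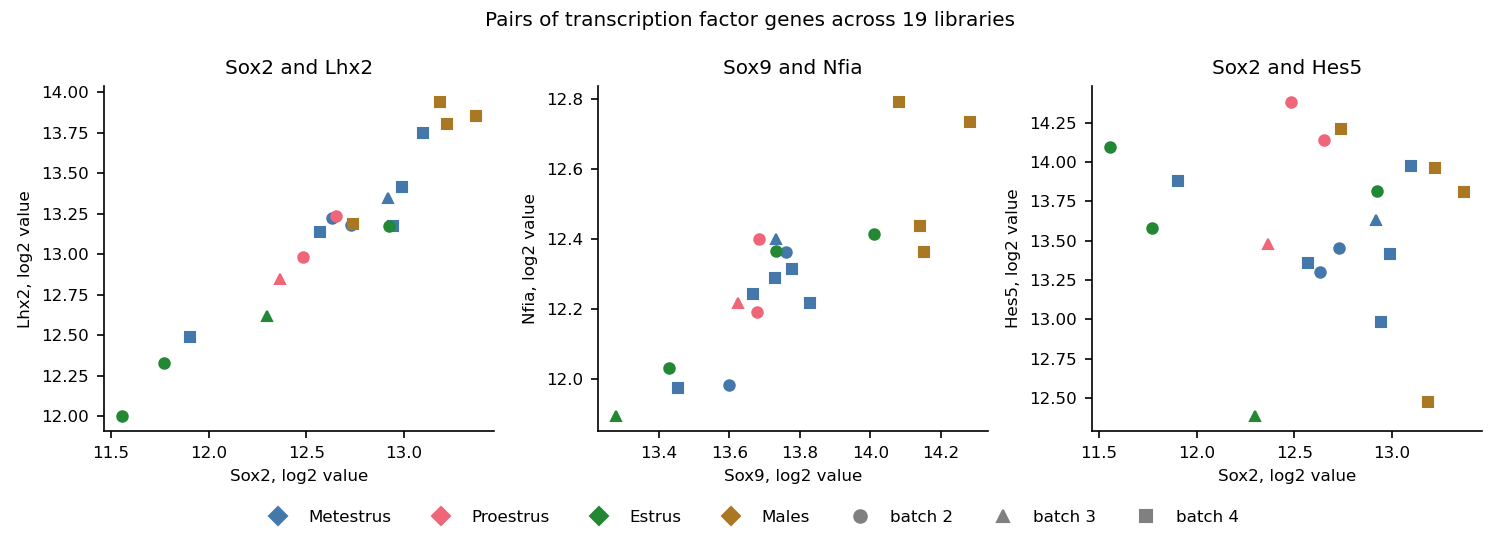
Deposited log2 values of a pair of genes per panel (x and y axes), 1 point per library, with colour for the group and shape for the batch. Sox2 and Lhx2 lie along a line (r = 0.968), Sox9 and Nfia along a looser one (0.853), and Sox2 and Hes5 show no slope (-0.12).

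**Figure D5:**
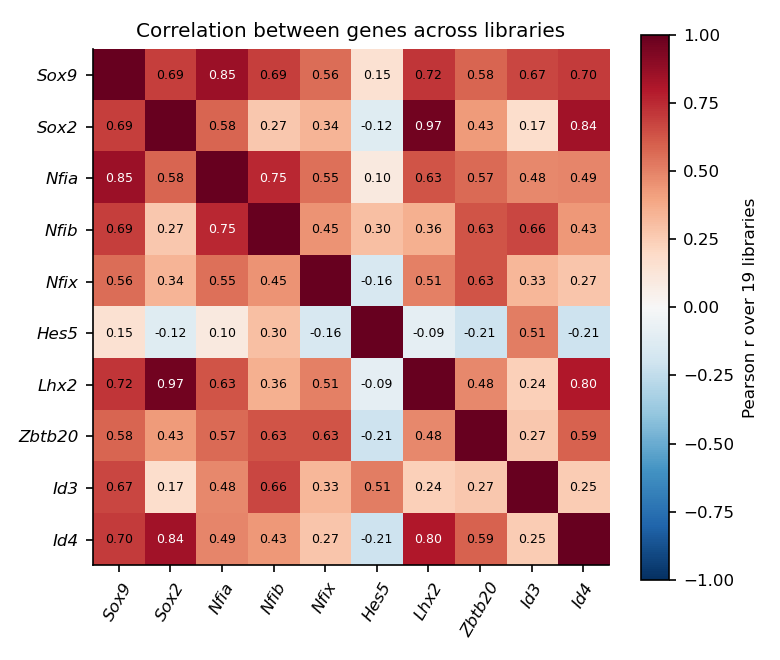
Pearson r over the 19 libraries for each pair of the 10 genes (rows and columns), printed in each cell and coloured from -1 in blue to 1 in red. The Sox2, Lhx2 and Id4 cells (0.80 to 0.97) and the Sox9 and Nfia cell (0.85) are the darkest, and the Hes5 row is pale apart from Id3.

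The genes outside the set that each one most resembled were found among 10217 genes with their own symbol and a mean at or above the median. Sox9 was most like Otx1, an orthodenticle homeobox gene (r = 0.941), and Nherf1, a scaffold protein of the membrane cortex (0.910). Sox2 was most like Arl8a (0.952) and Cdk2ap1 (0.950), and Lhx2 like Cdk2ap1 (0.960) and Arhgef19 (0.957), so 1 gene stood on both lists. Nfia was most like the RNA-binding gene Celf2 (0.923) and the growth factor antagonist Spry2 (0.901). Nfib was most like Prkd1 (0.887) and Gtf3c2 (0.870), and Nfix like Cox4i2 (0.930) and Prdm16 (0.884), a zinc-finger regulator also found in neural progenitors. For Zbtb20 the gene named is Fubp1 (0.888), and Id4 was most like Zfand3 (0.927) and Rnf10 (0.897). Id3 was most like Rfx4, a winged-helix factor of radial glia and astrocytes (0.890), and Hmgcll1 (0.886). Hes5 had the lowest best match, Tmx4 (0.817), followed by Cdh13 (0.782). These r values are over 19 libraries, were picked as the highest of many and carry no test.

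Most of the genes also moved with the general astrocyte signal of a library. With the mean of 20 astrocyte markers, 10 of 10 correlations were positive and 7 passed over the 40 relations computed with library measures (adjusted permutation p under 0.05), while by Spearman's rho 6 did. The lowest r that passed, 0.574, was reached by 9.16% of the other tested genes, markers left out, and by 29.7% of the 964 with a mean at or above the lowest mean of the 10. A positive r was held by 66.5% of the former and 84.6% of the latter, so 10 of 10 positive is near the share at this level. Sox9 followed it most closely, at r = 0.787 (permutation p 0.00011, adjusted 0.0044) and rho 0.863 (permutation p 2e-05), with 0.713 in batch 4, 0.740 in batch 2 and 0.809 without the 2 farthest libraries. Sox2 and Lhx2 passed over all libraries (r = 0.574 and 0.631, adjusted permutation p 0.0479 and 0.0239), with 0.764 and 0.858 in batch 4. In batch 2 the values were -0.0065 and -0.15, so for this pair of genes the relation did not hold there. Batch 3 has 3 libraries and gives no value.

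Some other measures of the libraries were set beside the genes. The mean of 6 RNAs that stay in the nucleus (Malat1, Neat1, Meg3, Miat, Rian and Snhg11) was 8.69 ± 1.27 in estrus (n = 4) and 10.65 ± 0.44 in metestrus (n = 8), and 10.35 ± 1.01 in proestrus (n = 3) and 10.65 ± 0.95 in males (n = 4). Sox2 was correlated with it at r = 0.579 (permutation p 0.00914, adjusted 0.0479; rho 0.444, permutation p 0.0584) and Lhx2 at 0.559 (permutation p 0.0125, adjusted 0.0557). Without the 2 libraries farthest from the median of that measure, estrus replicates 2 and 3, the values were 0.041 and 0.049. These 2 are also the libraries with the lowest Sox2 and Lhx2. Within batch 2, which holds both of them, the values were 0.793 and 0.839, and within batch 4 they were 0.029 and -0.034. The mean of 12 endothelial and mural markers was also lowest in estrus, at 5.28 ± 0.54 (4.89 to 6.03) against 6.34 ± 0.36 in metestrus (5.93 to 6.88), with 3 of 12 differences positive. The mean of 10 oligodendrocyte markers was highest there, at 10.22 ± 0.20 (10.05 to 10.49) against 9.84 ± 0.094 (9.69 to 9.98), with 10 of 10 positive and a median difference of 0.36. No gene of the set passed with the endothelial mean (lowest adjusted permutation p 0.323) or with a library's dependence on transcript GC content (0.301). The part of these measures in the estrus values of Sox2 and Lhx2 was not tested.

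Relatives of the set gave a like picture. The 20 relatives were SOX, NFI, ID, HES and HEY genes with Lhx9 and Zbtb16. Of them 0 passed in any comparison (limma adjusted p under 0.05). In males against metestrus 18 had a positive difference, beside 55.3% of all tested genes, and their median was 0.33. Nfic, the fourth NFI gene, was at 12.28 ± 0.24 in males (n = 4) and 11.89 ± 0.077 in metestrus (n = 8), a fitted difference of 0.39 (limma adjusted p 0.796). Id1 was at 12.25 ± 0.12 against 11.85 ± 0.091 (limma adjusted p 0.804), and Id2 at 16.22 ± 0.26 against 15.87 ± 0.17. The ranges of males and metestrus did not overlap for Nfic and Id1, as for 1.44% of all genes. Sox8, a close relative of Sox9 that oligodendrocytes also express, went another way: proestrus was highest, at 10.84 ± 0.18 (n = 3) against 10.16 ± 0.31 in metestrus (n = 8), a difference of 0.69 (limma adjusted p 0.177). Sox10, the oligodendrocyte-lineage member of the same SOX group, differed there by 0.61 (limma adjusted p 0.325).

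Among 25 other glial and radial glial transcription factors 0 passed. In males against metestrus 23 were positive, beside 55.3% of all tested genes, and their median was 0.24. Markers of other cells were also positive there in 10 of 12 endothelial and mural genes (median 0.48) and 4 of 6 oligodendrocyte precursor genes (0.41). The counts were 7 of 10 for oligodendrocytes (0.053) and 9 of 14 for neurons (0.061). They were 3 of 9 for microglia (-0.093) and 2 of 8 for ependymal and choroid plexus cells (-0.34). Olig2, best known from the oligodendrocyte lineage and also made by some astrocytes, was at 9.00 ± 0.54 in estrus (n = 4), 9.90 ± 0.32 in metestrus (n = 8) and 10.40 ± 0.36 in males (n = 4). Its estrus difference was -0.93 (limma adjusted p 0.224). Emx2 differed by -0.47 in estrus and -0.51 in proestrus, and Rfx4 by -0.070 and -0.13, all with limma adjusted p-values of 0.574 or more.

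The signalling genes upstream of the set did not pass the test either. Of 22 Notch genes 0 passed in any comparison, with medians of -0.058, -0.13, 0.032 and 0.21 in proestrus against metestrus, estrus against metestrus, estrus against proestrus and males against metestrus. The receptor gene Notch1 differed from metestrus by -0.36 in estrus (limma adjusted p 0.658) and Notch2 by -0.15 (adjusted p 0.907). Rbpj, the DNA-binding partner of Notch, was 0.32 higher in estrus, at 9.20 ± 0.21 (n = 4) against 8.87 ± 0.18 (n = 8, limma adjusted p 0.536). Of 22 BMP genes 0 passed; the receptor gene Bmpr1a differed from metestrus by -0.70 in proestrus (limma adjusted p 0.531), and the effector gene Smad1 by 0.041. At unadjusted p under 0.05 the limma counts in these 4 lists ran from 0 to 5 per comparison; the 5 were among the 20 relatives in estrus against proestrus, where 14.5% of all genes reached it. Apcdd1, Mmd2 and Zcchc24, which earlier work placed under SOX9 and NFIA, differed between males and metestrus by -0.10, 0.13 and 0.25, and 0 of the 3 passed in any comparison (lowest limma adjusted p 0.546; 0 at an unadjusted p under 0.05).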

How the data were processed

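RNA bound to EGFP-tagged ribosomes was sequenced in 19 libraries (8 metestrus, 3 proestrus, 4 estrus, 4 males). The deposited values are log2 expression values from -5.12 to 19.00 for 21749 genes. Per the submitters' processing notes STAR, Salmon, edgeR and GRCm39 were used, without versions or order. The sources used here do not give the scaling, pseudocount or depth. After centring, the values span 14 of 18 dimensions. The test took genes with a log2 value of 3.32 or more (10 on the linear scale) in 3 or more libraries. limma 3.58.1 in R 4.3.3 (trend and robust prior) fitted group and batch to all libraries, with Benjamini-Hochberg adjustment over 20644 genes, two-sided, at 0.05. The model has 13 residual degrees of freedom and the values allow 11, so p-values are somewhat too small. Pairs of genes were compared by Pearson r and Spearman rho with 100000 permutations, in Python 3.11.15 with scipy 1.17.1. The genes named are the 10, the 2 most alike to each (1 of these is not reported here), and fixed examples of each list. The rule for the genes is by symbol alone, but the set, the lists and the tests were chosen with earlier results of these data known, and the list of nuclear RNAs after seeing the values. Overlapping genes are from GENCODE on GRCm38, and promoter windows of 8 of the 10 genes from RefSeq (GRCm38.p6). Marker lists of neurons, oligodendrocyte precursors, microglia and ependymal cells had 0 genes past the threshold in any comparison (limma).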

Additional observations from a re-analysis of the deposited data

Results flagged for a closer look

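In groups of 4 to 8 libraries, 30 combinations of gene and group were checked for a library far from the rest, and 3 stood apart, where chance gives about 1 in 20. Sox2 in metestrus replicate 6 was 11.91 while the group reached 13.10, and the gap to its nearest neighbour was 0.560 of the group's range. Id4 in the same library was 13.23 with the group reaching 14.27 (0.628 of the range). Id3 in estrus replicate 4 was 13.51 with the group reaching 14.71 (0.855 of the range). Lhx2 was also lowest of its group in metestrus replicate 6, at 12.49.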

How the results depend on the processing

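The count of 0 genes called held in every comparison under each alternative, with these exceptions. With batch left out the F test called 3 of the 10, Lhx2 (limma adjusted p 0.0118), Sox9 (0.0196) and Sox2 (0.0407), and 12.5% of all genes. With library weights it called 1, Sox9 (limma adjusted p 0.0460), and 1220 of the 20644 tested genes. Sox9 was also the 1 called with these weights in males against metestrus (0.39, limma adjusted p 0.0272), where 534 of all tested genes were called. The weights did not converge, and metestrus replicate 7 took 25.1 against a median of 0.707. Over all alternatives the adjusted p of that Sox9 difference ran from 0.0272 to 0.99997. Leaving out each library in turn called 0 of the 10 in every comparison and in the F test.

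Signs of small differences were not stable. Centring on the astrocyte marker mean, chosen after seeing the data, gave for proestrus against metestrus 0.12 (Sox9) and 0.076 (Id3), for estrus against metestrus 0.040 (Sox9), 0.060 (Nfia), 0.080 (Nfib), 0.092 (Hes5) and 0.025 (Id3), for estrus against proestrus -0.013 (Zbtb20) and for males -0.10 (Hes5). Library weights gave -0.045 (Nfia) and -0.034 (Nfib) for proestrus against metestrus, 0.019 (Hes5) for estrus against metestrus, and 0.0090 (Nfib) and 0.0058 (Id4) for estrus against proestrus. Centring on medians gave 0.0013 (Sox9, proestrus against metestrus), and batch left out -0.0037 (Zbtb20) and 0.0044 (Id3) for estrus against proestrus. The cause was not tested.

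Leaving out 1 library gave, for proestrus against metestrus, -0.12 to 0.071 (Sox9), -0.14 to 0.18 (Nfia), -0.12 to 0.15 (Nfib), -0.052 to 0.14 (Nfix) and -0.29 to 0.081 (Id3). For estrus against metestrus it gave -0.22 to 0.026 (Sox9), -0.25 to 0.063 (Nfia), -0.20 to 0.16 (Nfib), -0.27 to 0.38 (Hes5) and -0.20 to 0.18 (Id3), with positive values only without estrus replicate 4 or metestrus replicate 3. For estrus against proestrus it gave -0.18 to 0.061 (Sox9), -0.17 to 0.025 (Nfia), -0.20 to 0.15 (Nfib), -0.19 to 0.26 (Zbtb20), -0.20 to 0.26 (Id3) and -0.23 to 0.094 (Id4), and for Hes5 in males -0.11 to 0.47. The Sox2 and Lhx2 correlation stayed at 0.955 to 0.976. Passing pairs numbered 13 to 27, and 11 with group and batch fitted out.

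Counts over all genes moved far more: 204 for proestrus against metestrus (1 in batches 2 and 3 only, 1146 with batch left out), 18 for estrus against metestrus (0 at the stricter filter, 899 with batch left out), 194 for estrus against proestrus (0 in batches 2 and 3 only, 691 with library weights), 5 for males (1 at the stricter filter, 534 with library weights) and 131 for the F test (2 and 2579). In batch 4 the number in the titles, taken as a replicate block, gave 0 genes called and a Sox9 difference of 0.49 (limma adjusted p 0.840). Deviations of same-numbered libraries correlated at 0.16, 0.026, -0.26 and -0.13. With directions within groups missing from the values, these 4 correlations cannot tell whether the numbers pair libraries. Depth is unknown, and group sizes of 3 and 4 limit what could be called.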
